A study of Mus musculus with 18 samples.

Results

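Bone marrow of mice that overexpressed the G allele of CCAT2 was set against marrow of wild-type (WT) mice across all annotated genes of an expression array. The samples were chosen by their titles, which gave 4 CCAT2-G and 4 WT mice, 8 of the 18 in the series, with 1 array per mouse. All mice were of the C57Bl6 strain, and the labels state that CCAT2-G or CCAT2-T was overexpressed in every tissue. The CCAT2-G mice carry the label DRAI-, a status the labels do not spell out, while for WT mice that status is given as NA. The other arrays came from 4 CCAT2-T mice, also DRAI-, and 6 CCAT2-GT mice labelled DRAI+. They shared the estimate of the spread, and the CCAT2-T mice served for a comparison between the alleles. Neither age nor the promoter driving the transgene is stated in the labels. The RNA of the transgene itself was not analysed here, so its overexpression was not checked.

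CCAT2 is a long non-coding RNA first described in human colorectal cancer, transcribed from a gene desert near MYC, and its G and T forms differ at a common variant. It has been linked to MYC and WNT signalling in cancer cells, and the series title places these mice in work on myeloid malignancy. Marrow holds stem and progenitor cells and their erythroid, granulocytic, monocytic, megakaryocytic and lymphoid offspring, so a whole-marrow RNA level mixes all of them. In such a sample, fewer cells of a type and less RNA per cell cannot be told apart.

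The 8 mice had array medians of 4.27 to 4.38 on the log2 scale. Defining marrow markers were high in all 8, with the neutrophil gene S100a8 at 13.7 to 13.8, the granule enzyme gene Mpo at 11.15 to 12.32 and the erythroid factor gene Klf1 at 9.49 to 10.78. Xist, the RNA that shuts down 1 X chromosome in females, was at 3.52 to 3.94 in the 8 mice and the Y-linked gene Eif2s3y at 6.96 to 7.93. CCAT2-G replicate 1 and WT replicates 1 and 2 had narrower interquartile ranges (2.97 to 3.07) than the other 5 mice (3.15 to 3.36). CCAT2-G replicate 3 was low in B-cell genes. WT replicate 3 was high in immediate-early genes, and WT replicate 4 was high in skeletal muscle, stromal and platelet genes. Many of the values below that rest on these arrays are also given without them.

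Across 14505 genes, none passed a Benjamini-Hochberg adjusted p of 0.05 between CCAT2-G and WT marrow (0%, limma), and the smallest adjusted p was 1.00. At an unadjusted limma p under 0.05 there were 228 genes (1.57%), of which 133 (0.917%) were higher and 95 (0.655%) were lower in CCAT2-G mice. With no difference between the groups, a share of about 0.05 of all genes would have such a p on average. In this fit the 1.57% lies below that share, so these genes are not an excess here. In 128 genes (0.882%) the 4 CCAT2-G values and the 4 WT values did not overlap, with CCAT2-G higher in 67 (0.462%) and lower in 61 (0.421%). The median absolute difference was 0.09 on the log2 scale, against a median standard error of 0.16 for a single gene. These unadjusted counts moved with single mice. Without CCAT2-G replicate 3 they were 376 higher and 514 lower, together above the share of 0.05. Without CCAT2-G replicate 4 they were 78 and 39. The higher count was 327 without CCAT2-G replicate 1. The lower count was 171 without CCAT2-G replicate 2, 164 without WT replicate 2 and 54 without WT replicate 3. Genes are named below by their order in the fit and their values in each mouse, and none passed after adjustment.

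**Figure D1:**
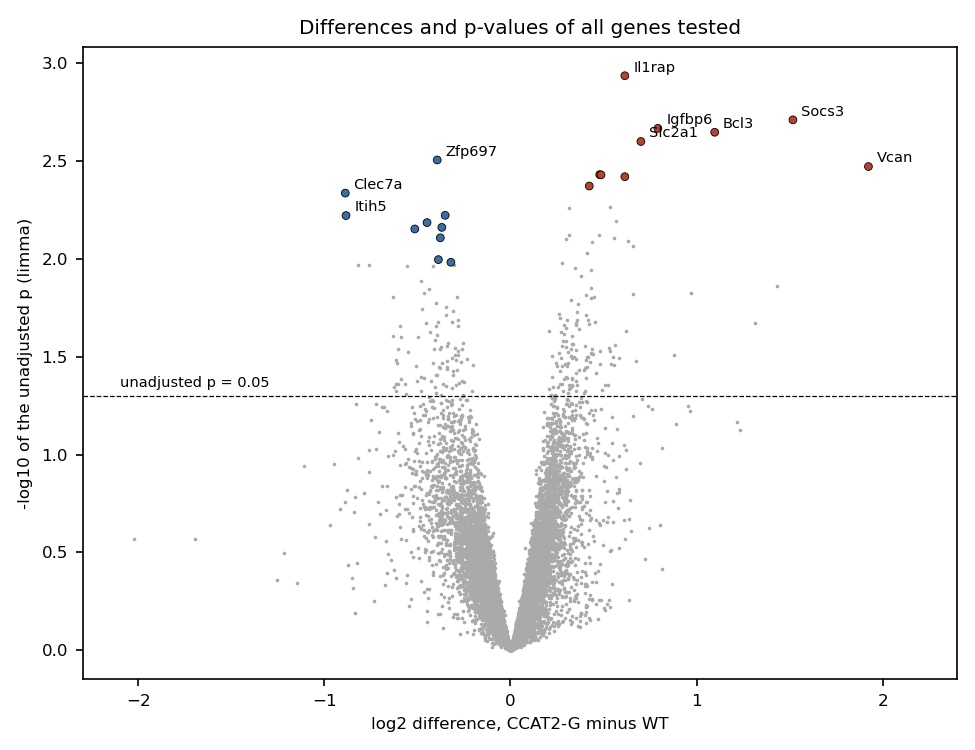
Each point is 1 of the 14505 genes, with its log2 difference (CCAT2-G minus WT) on the x axis and the negative log10 of its unadjusted limma p on the y axis; coloured points are the 10 named genes of smallest p in each direction, red where higher and blue where lower in CCAT2-G mice. Il1rap has the smallest p and Vcan the largest difference among the higher genes, and the 6 points left of -1 are genes high in WT replicate 3.

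Il1rap, the gene of smallest p, was higher in CCAT2-G mice. It encodes the accessory chain that interleukin-1 receptors need to signal. Its level was 6.25, 6.30, 6.64 and 6.31 in CCAT2-G mice, against 5.65, 5.80, 5.89 and 5.70 in WT mice. Every CCAT2-G mouse lay above every WT mouse, and the log2 difference was 0.61 (SE 0.16). The mean of all its probesets gave a smaller difference of 0.28, while the 2 other probesets above the filter had the same direction.

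Socs3 encodes a feedback inhibitor of JAK-STAT signalling below the receptors of interleukin-6 and granulocyte colony-stimulating factor. It was at 6.88, 7.17, 6.92 and 7.08 in CCAT2-G mice, against 5.20, 4.89, 6.96 and 4.93 in WT mice. The CCAT2-G mice were close together, 3 WT mice were lower, and WT replicate 3, the mouse high in immediate-early genes, was at the CCAT2-G level. The difference was 1.52 (SE 0.42, 2.86-fold), and 2.01 without WT replicate 3. In the RefSeq promoter window of Socs3, on chromosome 11 of GRCm38.p6, chr11:117969317-117969616, minus strand, a script found 1 match to the STAT motif TTCNNNGAA, in capitals, which begins 154 bases before the gene's start. The window of Vcan, the gene with the largest difference, is on chromosome 13, chr13:89742463-89742762, minus strand, and holds no match to these letters. Both are shown from 250 bases before to 50 bases after the start, since these genes lead the higher side by size.
Socs3: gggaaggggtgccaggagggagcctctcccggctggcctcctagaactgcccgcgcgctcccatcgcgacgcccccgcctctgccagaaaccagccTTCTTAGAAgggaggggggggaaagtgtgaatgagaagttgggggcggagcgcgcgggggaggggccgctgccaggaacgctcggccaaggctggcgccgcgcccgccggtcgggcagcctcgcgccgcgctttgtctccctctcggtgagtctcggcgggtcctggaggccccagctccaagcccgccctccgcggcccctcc
Vcan: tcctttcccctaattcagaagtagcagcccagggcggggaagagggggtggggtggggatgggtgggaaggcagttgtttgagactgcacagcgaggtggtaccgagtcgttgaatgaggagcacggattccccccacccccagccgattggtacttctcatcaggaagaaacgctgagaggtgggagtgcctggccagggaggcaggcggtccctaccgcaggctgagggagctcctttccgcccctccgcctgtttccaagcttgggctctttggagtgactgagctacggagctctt
The STAT motif reads the same on both strands. It was in 6.85% of the 11570 promoter windows that matched a tested gene by gene ID, and in 1 of 10 windows of the higher genes of smallest p. None of the 9 windows of the lower genes held it.

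Bcl3 encodes a nuclear protein of the IkappaB family that binds NF-kappaB dimers. It was at 6.97, 6.99, 6.15 and 7.62 in CCAT2-G mice and 5.88, 6.20, 6.07 and 5.18 in WT mice. CCAT2-G replicate 3 lay within the WT values and the other 3 CCAT2-G mice above them, with a difference of 1.10 (SE 0.31). Slc2a1, the glucose transporter GLUT1, was at 7.48, 7.26, 7.62 and 7.80 in CCAT2-G mice and 6.89, 6.75, 7.32 and 6.39 in WT mice. Here WT replicate 3 reached into the CCAT2-G values, and the difference was 0.70 (SE 0.20). Prok2, which encodes the secreted peptide prokineticin, was at 5.84, 6.89, 5.97 and 7.29 in CCAT2-G mice and 5.54, 5.64, 5.64 and 5.37 in WT mice, with no overlap. Its difference was 0.95 (SE 0.47), and 0.25 within the narrow arrays. Il1r2, the decoy receptor of interleukin-1, is a marker of mature neutrophils. It was at 8.77, 8.14, 9.38 and 8.31 in CCAT2-G mice and 7.34, 7.74, 8.15 and 7.48 in WT mice, and differed by 0.97 (SE 0.36). In that list 6 of 17 measured genes were higher, and the median difference was -0.05.

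Some markers of monocytes and macrophages had large differences and were higher in CCAT2-G mice. Vcan encodes versican, a large proteoglycan of the extracellular matrix that monocytes make. It was at 6.40, 6.35, 8.58 and 7.93 in CCAT2-G mice, against 4.64, 5.01, 5.74 and 6.18 in WT mice. The groups did not overlap, CCAT2-G replicates 3 and 4 were the highest, and the difference was 1.92 (SE 0.57, 3.79-fold). The mean of its probesets, most of them below the filter, gave 0.63. Ms4a6d, a membrane protein of monocytes, was at 6.69, 7.08, 7.99 and 8.58 in CCAT2-G mice and 5.36, 6.16, 5.84 and 7.25 in WT mice. WT replicate 4 lay above 2 CCAT2-G mice, and the difference was 1.43 (SE 0.53). Cd163, the haemoglobin scavenger receptor of macrophages, was at 5.11, 6.21, 4.47 and 5.77 in CCAT2-G mice and 4.11, 4.57, 3.87 and 3.75 in WT mice. Only CCAT2-G replicate 3 reached down into the WT values, and the difference was 1.32 (SE 0.52).

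Clec7a, the beta-glucan receptor Dectin-1 of myeloid cells, was lower in CCAT2-G mice. Its level was 8.47, 9.21, 9.78 and 8.32 in CCAT2-G mice, against 9.51, 9.68, 9.98 and 10.18 in WT mice. CCAT2-G replicate 3 lay among the WT values and the other 3 below them, with a difference of -0.89 (SE 0.27). Csf1r, the receptor that monocytes and macrophages depend on, differed by -0.37 (SE 0.24). Over the whole monocyte and macrophage list, 10 of 21 measured genes were higher and the median difference was 0.00, beside 53.2% higher and a median of 0.01 over all genes tested. Without WT replicates 3 and 4 it had 17 of 21 higher and a median of 0.24. The iron-recycling and resident macrophage list had 13 of 19 genes higher and a median of 0.09, which was -0.30 without WT replicate 3. Vcan, Ms4a6d and Cd163 were named for their small p, so their distance from the middle of their own lists follows from that choice. The mean level of the monocyte and macrophage list was 8.13, 8.33, 9.14 and 9.05 in CCAT2-G mice and 8.06, 8.44, 8.79 and 8.67 in WT mice. CCAT2-G replicates 3 and 4, highest in Vcan and Ms4a6d, were also highest there, and its part in those differences was not tested.

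The remaining genes chosen by p or by groups that did not overlap belong to none of the gene lists described below. Igfbp6, which binds insulin-like growth factors, was at 4.29, 4.60, 4.81 and 4.43 in CCAT2-G mice and 3.97, 3.89, 3.30 and 3.80 in WT mice, a difference of 0.79 (SE 0.22) without overlap at a low level. Lipg, which encodes endothelial lipase, differed by 1.24 (SE 0.65), but CCAT2-G replicate 4 at 7.04 stood above the other CCAT2-G mice at 4.35 to 5.08 and the WT mice at 3.96 to 4.05. Without that mouse its difference was 0.64, and its other probeset above the filter had the opposite direction. Tmed5, a cargo receptor of the early secretory pathway, differed by 0.48 (SE 0.14), and Slc7a6, a subunit of an amino acid exchanger, by 0.61 (SE 0.19). In Slc7a6, CCAT2-G replicate 1 at 5.21 lay among the WT mice at 5.13 to 5.45. Slc7a6 was at -0.02 within the narrow arrays. Differences of 0.42 to 0.67 were measured for Sema6b, a transmembrane semaphorin, Zfp709, a zinc finger gene, Gpld1, which encodes a phospholipase that cleaves GPI anchors, and Mid1, a ubiquitin ligase of microtubules.

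On the lower side, Itih5, of the inter-alpha-trypsin inhibitor family, was at 5.76, 5.78, 7.00 and 6.10 in CCAT2-G mice and 6.78, 6.63, 7.16 and 7.62 in WT mice. CCAT2-G replicate 3 overlapped the WT values, and the difference was -0.88 (SE 0.28). Camkk2, a calcium-dependent kinase that activates AMPK, was at 7.83, 7.67, 8.00 and 8.19 in CCAT2-G mice, against 8.28, 8.55, 8.59 and 8.47 in WT mice. Its groups did not overlap, with a difference of -0.55 (SE 0.23). Rragd, a GTPase that links amino acids to mTORC1, differed by -0.62 (SE 0.27), and by -0.40 without WT replicate 4. Trp53bp1, the DNA double-strand break protein 53BP1, was at 6.87, 6.55, 6.63 and 6.84 in CCAT2-G mice and 7.01, 7.01, 7.33 and 7.29 in WT mice, without overlap. Its difference was -0.44 (SE 0.16), although 1 of its 3 other probesets above the filter had the opposite direction. Tlcd2 differed by -0.45 (SE 0.15) without overlap, and Arrb1, which encodes beta-arrestin, by -0.51 (SE 0.17). Arrb1 was at -0.26 without WT replicates 3 and 4. The other lower genes so chosen were Sh3bp5, Stk38l, Zfp697, Inpp5k, Wdr91, Tusc1, Gapvd1 and Zdhhc15, with differences of -0.32 to -0.47. Zfp697 lay near the filter of 3.30, at 3.21, 3.21, 3.45 and 3.08 in CCAT2-G mice and 3.70, 3.48, 3.58 and 3.77 in WT mice. Zdhhc15 was also at a low level, with means of 3.85 and 4.17. Neither had another probeset above the filter. For Sh3bp5, 1 of 2 other probesets above the filter had the opposite direction.

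**Figure D2:**
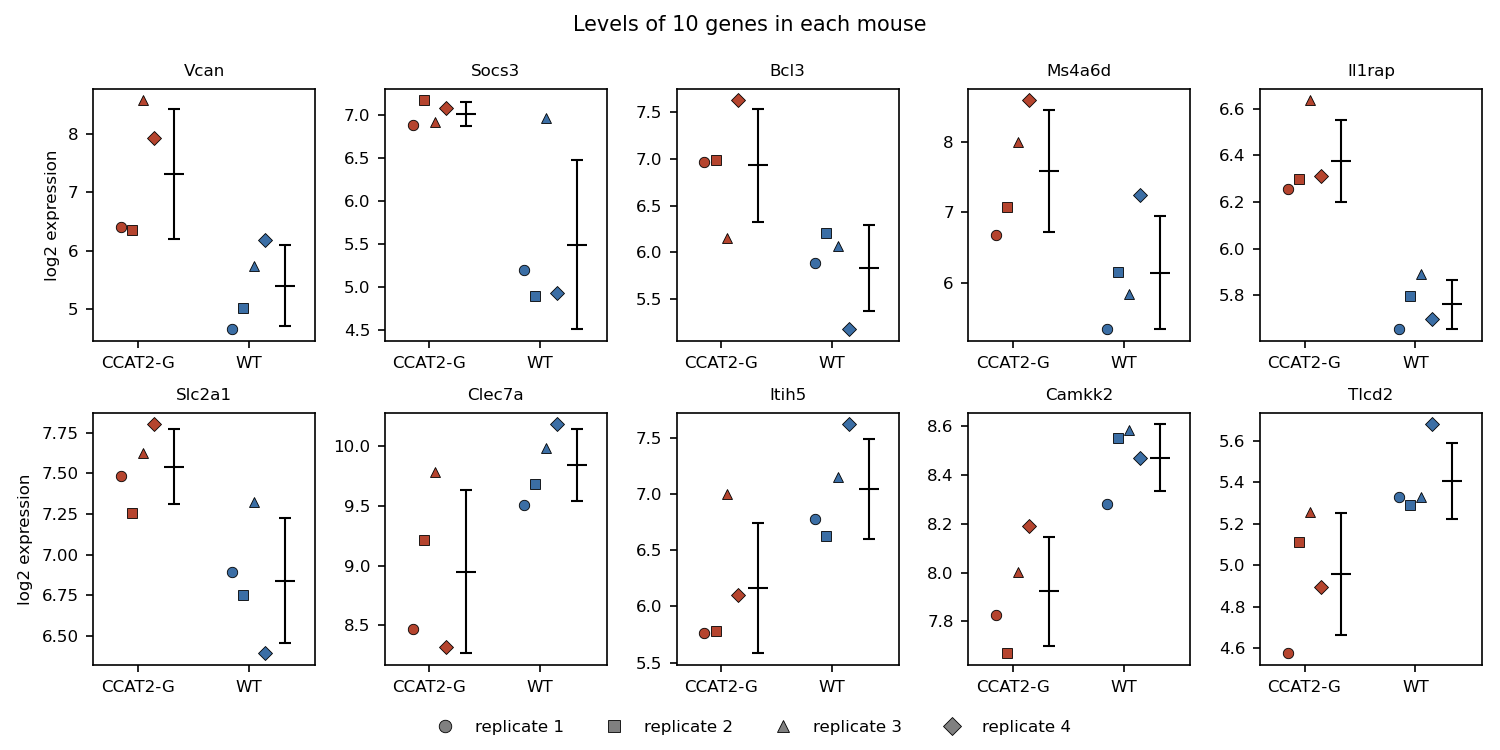
Log2 expression of 10 genes in each mouse, with CCAT2-G mice in red on the left and WT mice in blue on the right of each panel; symbols give the replicate, and the bar beside the points is the mean with its SD (n = 4). Vcan, Il1rap, Camkk2 and Tlcd2 have no overlap between groups, while for Socs3 WT replicate 3 sits with the CCAT2-G mice.

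Lists of marker and pathway genes, 33 in all with 759 measured entries, were read by their counts beside those of all genes tested. The erythroid list was the only one with every measured member on 1 side. All 30 measured members were lower in CCAT2-G mice, beside 46.8% of all genes, and their median difference was -0.26. None had an adjusted p under 0.05. Ppox and Alad, enzymes of haem synthesis, differed by -0.40 and -0.40, Ank1, which anchors the red cell membrane skeleton, by -0.43, and Ermap, a membrane protein of erythroid cells, by -0.44. Gata1, the master transcription factor of this lineage, differed by -0.33 (SE 0.22) and Klf1 by -0.17 (SE 0.27).

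The erythroid values were not shared by all 4 CCAT2-G mice. The mean level of the list was 9.85, 10.01, 9.38 and 9.08 in CCAT2-G mice, against 9.82, 9.71, 9.95 and 9.93 in WT mice. CCAT2-G replicates 3 and 4 lay below all WT mice, and CCAT2-G replicates 1 and 2 lay among or above them. Ank1 was likewise lowest in CCAT2-G replicates 3 and 4, at 9.29, 9.28, 8.92 and 8.37 in CCAT2-G mice and 9.39, 9.26, 9.64 and 9.28 in WT mice. The median difference was -0.13 without CCAT2-G replicate 4 and -0.54 without the narrow arrays. Within the narrow arrays, which hold 1 CCAT2-G mouse, it was 0.12, with 20 of 30 genes higher.

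Granule genes of maturing neutrophils were also lower in CCAT2-G mice. Of 18 measured genes of secondary and tertiary granules, 17 were lower and the median difference was -0.26. Camp, the precursor of the antimicrobial peptide cathelicidin, was at 13.43, 13.28, 13.65 and 13.24 in CCAT2-G mice and 13.56, 13.61, 13.62 and 13.64 in WT mice, a difference of -0.21 (SE 0.10). Cybb, the catalytic subunit of the NADPH oxidase, was at 10.79, 10.42, 11.47 and 10.69 in CCAT2-G mice and 11.24, 11.36, 11.57 and 10.98 in WT mice, a difference of -0.44 (SE 0.23). Ltf, which encodes lactoferrin, differed by -0.33 (SE 0.22), and Padi4, the enzyme that citrullinates histones, by -0.53 (SE 0.41). Chil3 was the exception, at 0.10 (SE 0.14).

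In the mean level of these granule genes, CCAT2-G replicates 1, 2 and 4 were at 10.44, 10.19 and 10.04, below the WT mice at 10.65, 10.65, 10.86 and 10.60, while CCAT2-G replicate 3 was at 11.03. The median difference stayed below 0 with each mouse left out, from -0.16 without CCAT2-G replicate 4 to -0.47 without CCAT2-G replicate 3, and was -0.24 within the narrow arrays. The level of the mature neutrophil list was 9.27, 9.13, 10.09 and 8.81 in CCAT2-G mice and 9.17, 9.26, 9.79 and 9.33 in WT mice, again highest in CCAT2-G replicate 3. Genes of primary granules and precursors had 4 of 15 higher and a median of -0.15, which was 0.10 without CCAT2-G replicate 1. Among them Mpo, the peroxidase of these granules, differed by -0.41 (SE 0.26) and Elane, neutrophil elastase, by -0.20 (SE 0.38). S100a8, made in later neutrophils, differed by -0.03 (SE 0.07).

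Genes of ribosome biogenesis and other MYC targets leaned the other way. Of 37 measured members, 34 were higher in CCAT2-G mice, beside 53.2% of all genes, with a median difference of 0.24. Srm, the spermidine synthase and a classic MYC target, was at 7.75, 8.45, 8.23 and 9.00 in CCAT2-G mice, against 7.74, 7.85, 7.99 and 7.72 in WT mice. CCAT2-G replicates 2, 3 and 4 lay above all WT mice and CCAT2-G replicate 1 among them, with a difference of 0.53 (SE 0.22). Rrs1, an assembly factor of the large ribosomal subunit, differed by 0.43 (SE 0.19), Ppan, also of that subunit, by 0.35 (SE 0.16), and Nop58, a core protein of small nucleolar particles, by 0.41 (SE 0.22). Odc1, Polr1b and Polr1a were lower, by -0.15, -0.11 and -0.10. Myc itself was at 7.85, 8.40, 7.77 and 8.68 in CCAT2-G mice and 7.56, 7.70, 8.32 and 7.68 in WT mice, a difference of 0.35 (SE 0.23).

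The level of the MYC target list was 7.47, 7.88, 7.68 and 8.10 in CCAT2-G mice and 7.45, 7.56, 7.68 and 7.57 in WT mice. CCAT2-G replicates 2 and 4 were the highest, and CCAT2-G replicates 1 and 3 lay within the WT range. Its median difference was 0.12 without CCAT2-G replicate 4 and between 0.20 and 0.34 with any other mouse left out. Within the narrow arrays it was -0.07, with 9 of 37 genes higher. Ribosomal proteins, which are not part of that list, had 21 of 27 higher but a median of 0.03.

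Promoter windows of these lists were searched for letters that known regulators bind, as a description of the lists and not of the CCAT2-G mice. The E-box CACGTG, which MYC binds, reads the same on both strands and was in 10 of 31 windows of the MYC target list (32.3%), against 9.56% of all 11570 windows. The GATA motif AGATAA, searched on both strands, was in 8 of 22 erythroid windows (36.4%), against 7.05% of all. The motif CCACACCC, which KLF1 binds, was in 0 of 22 erythroid windows (0%), against 3.83% of all, also on both strands. For each list the window shown is that of the member of smallest p with a match, the match being in capitals. Mybbp1a, a nucleolar protein that binds MYB, differed by 0.31 (SE 0.15), and its window is on chromosome 11 of GRCm38.p6, chr11:72441077-72441376, plus strand. Kel, a membrane protein of red cells, differed by -0.39 (SE 0.25), and its window is on chromosome 6, chr6:41704276-41704575, minus strand. The match begins 40 bases after the start of Mybbp1a and 56 bases before that of Kel, which was named for its window after its values were seen.
Mybbp1a: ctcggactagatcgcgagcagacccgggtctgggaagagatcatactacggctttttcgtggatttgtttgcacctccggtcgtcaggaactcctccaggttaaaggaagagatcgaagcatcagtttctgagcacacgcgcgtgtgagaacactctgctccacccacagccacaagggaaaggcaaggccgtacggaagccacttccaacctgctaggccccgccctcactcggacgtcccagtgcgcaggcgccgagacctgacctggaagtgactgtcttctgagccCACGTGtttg
Kel: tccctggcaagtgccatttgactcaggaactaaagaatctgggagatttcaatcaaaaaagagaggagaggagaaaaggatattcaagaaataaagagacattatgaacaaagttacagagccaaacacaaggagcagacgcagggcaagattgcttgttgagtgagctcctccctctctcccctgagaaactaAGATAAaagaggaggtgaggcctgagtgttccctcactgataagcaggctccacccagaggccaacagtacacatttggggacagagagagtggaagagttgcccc
A match is letters in a window and was not tested as a binding site.

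**Figure D3:**
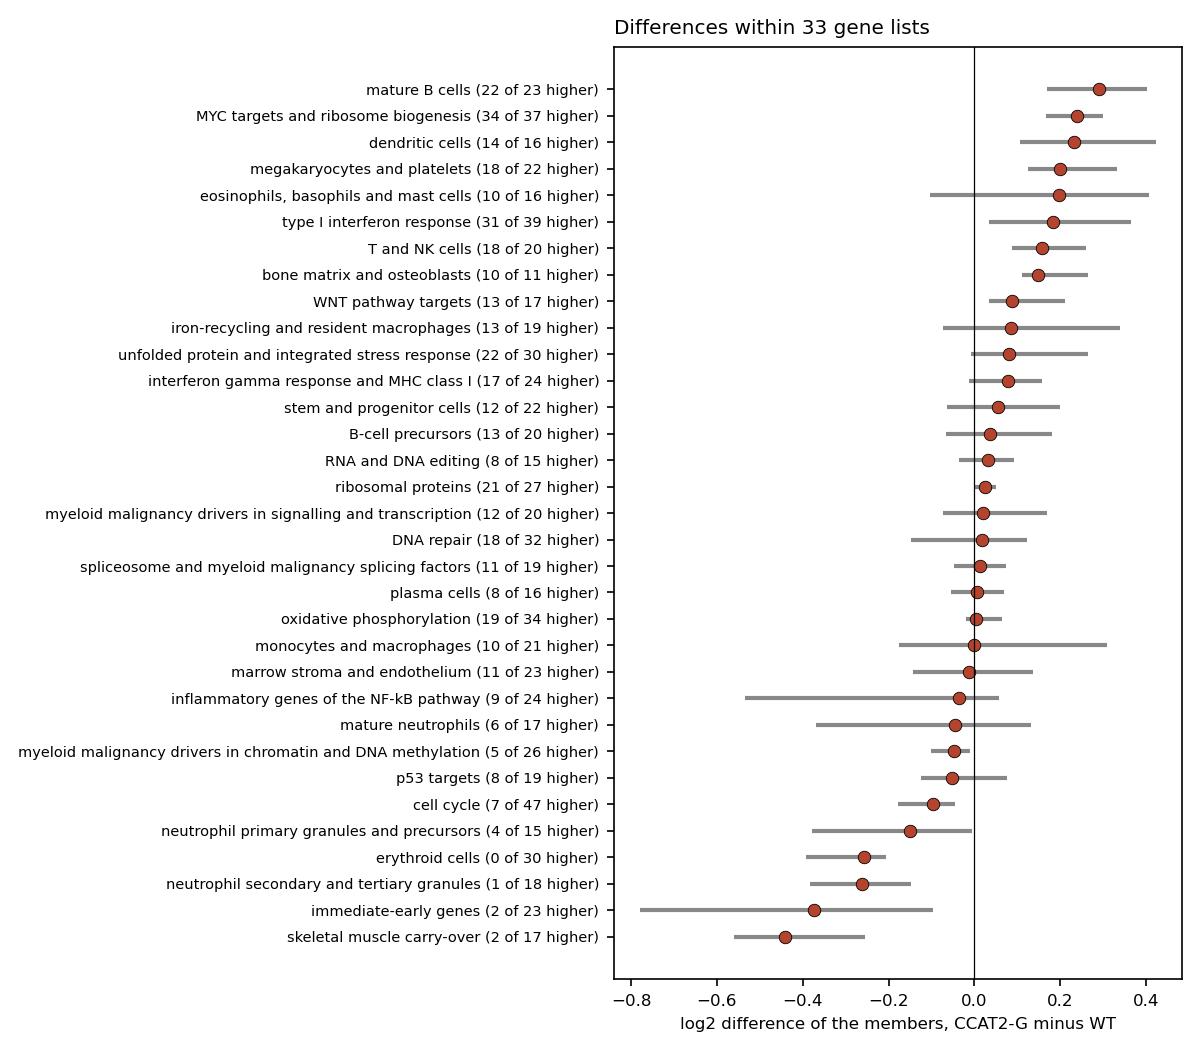
Median log2 difference (CCAT2-G minus WT, points) and interquartile range over members (bars) of 33 gene lists, ordered from the highest median at the top, with the number of members higher in CCAT2-G mice in each label. The erythroid and granule lists lie below 0 and the MYC target list above it, while the muscle and immediate-early lists at the bottom each rest on 1 WT mouse.

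In a list on protein folding stress (the unfolded protein response with the integrated stress response), 22 of 30 genes were higher, with a median difference of 0.08. Sdf2l1, a component of a chaperone complex in the endoplasmic reticulum, was at 7.45, 7.98, 8.52 and 8.41 in CCAT2-G mice and 7.54, 7.55, 7.63 and 7.48 in WT mice, a difference of 0.54 (SE 0.24). CCAT2-G replicate 1 lay below the WT mice and the other 3 above them. Hsp90b1, the chaperone GRP94, was at 10.52, 10.67, 10.53 and 11.03 in CCAT2-G mice and 10.34, 10.45, 10.48 and 10.32 in WT mice, so that the groups did not overlap, with a difference of 0.29 (SE 0.15). The disulfide isomerase genes Pdia6 and Pdia4 differed by 0.41 (SE 0.18) and 0.35 (SE 0.21). Ppp1r15a, which restores translation after stress, differed by -0.30 (SE 0.22). Within the narrow arrays the list had 9 of 30 genes higher.

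Interferon genes leaned higher, with wide spread. In the type I interferon list 31 of 39 genes were higher and the median difference was 0.18. Oas1a, which makes the activator of RNase L, was at 6.92, 7.32, 8.24 and 7.79 in CCAT2-G mice and 7.04, 7.72, 6.79 and 6.43 in WT mice, a difference of 0.57 (SE 0.39). Trim30a differed by 0.51 (SE 0.27) and Ifi35 by 0.31 (SE 0.18), and WT replicate 2 was within the CCAT2-G values for these 3 genes. The list median was 0.01, with 20 of 39 genes higher, without WT replicates 3 and 4, and -0.18 within the narrow arrays. Genes of the interferon gamma response and MHC class I had 17 of 24 higher and a median of 0.08, with the immunoproteasome subunit Psmb8 at 0.30 (SE 0.18).

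Lymphoid lists followed single mice. Of 23 measured mature B-cell genes 22 were higher, with a median of 0.29. The list level was 8.58, 8.08, 6.22 and 8.31 in CCAT2-G mice, against 8.39, 8.31, 7.00 and 6.41 in WT mice. A single CCAT2-G mouse and 2 WT mice were thus low, and the median was 0.82 without CCAT2-G replicate 3, -0.13 without WT replicate 4 and -0.55, with 0 of 23 genes higher, without WT replicates 3 and 4. Cd79a, a chain of the B-cell receptor, was at 9.08, 8.55, 5.07 and 9.01 in CCAT2-G mice and 8.99, 9.03, 6.15 and 5.42 in WT mice. B-cell precursors had 13 of 20 genes higher (median 0.04), with the surrogate light chain gene Vpreb1 at -0.10 (SE 0.99). Their level was 8.26, 8.18, 6.11 and 8.24 in CCAT2-G mice and 8.16, 8.14, 7.28 and 6.98 in WT mice. The median was 0.72 without CCAT2-G replicate 3 and -0.39 without WT replicates 3 and 4, and it lay between -0.13 and -0.06 without CCAT2-G replicate 1, 2 or 4 or WT replicate 3 or 4. T and NK cells had 18 of 20 higher (median 0.16, and -0.10 without WT replicates 3 and 4), with Cd3e, part of the T-cell receptor complex, at 0.29 (SE 0.23). Plasma cells had 8 of 16 higher (median 0.00, and -0.07 without WT replicate 3).

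Among other cell types, 18 of 22 platelet genes were higher with a median of 0.20. Their level was 7.33, 8.22, 7.36 and 8.39 in CCAT2-G mice and 7.29, 7.39, 7.20 and 8.65 in WT mice, and the median was 0.52 without WT replicate 4 and -0.01 without CCAT2-G replicate 4. Pf4, a platelet chemokine, differed by 0.26 (SE 0.76). The dendritic list had 14 of 16 genes higher and a median of 0.23, which was -0.04 without WT replicates 3 and 4. Its largest difference was that of Klk1, a kallikrein protease, at 6.97, 6.88, 5.83 and 7.36 in CCAT2-G mice and 6.43, 6.61, 4.25 and 4.86 in WT mice. Stem and progenitor genes had 12 of 22 higher, with Kit, the stem cell factor receptor, at -0.17 (SE 0.28) and Cd34 at 0.34 (SE 0.42). The eosinophil, basophil and mast cell list had 10 of 16 higher (median 0.20, and 0.05 without CCAT2-G replicate 3), although Prg2, the eosinophil major basic protein, ran at 8.88, 8.48, 12.05 and 6.37 in CCAT2-G mice and 9.03, 8.40, 8.36 and 11.44 in WT mice.

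**Figure D4:**
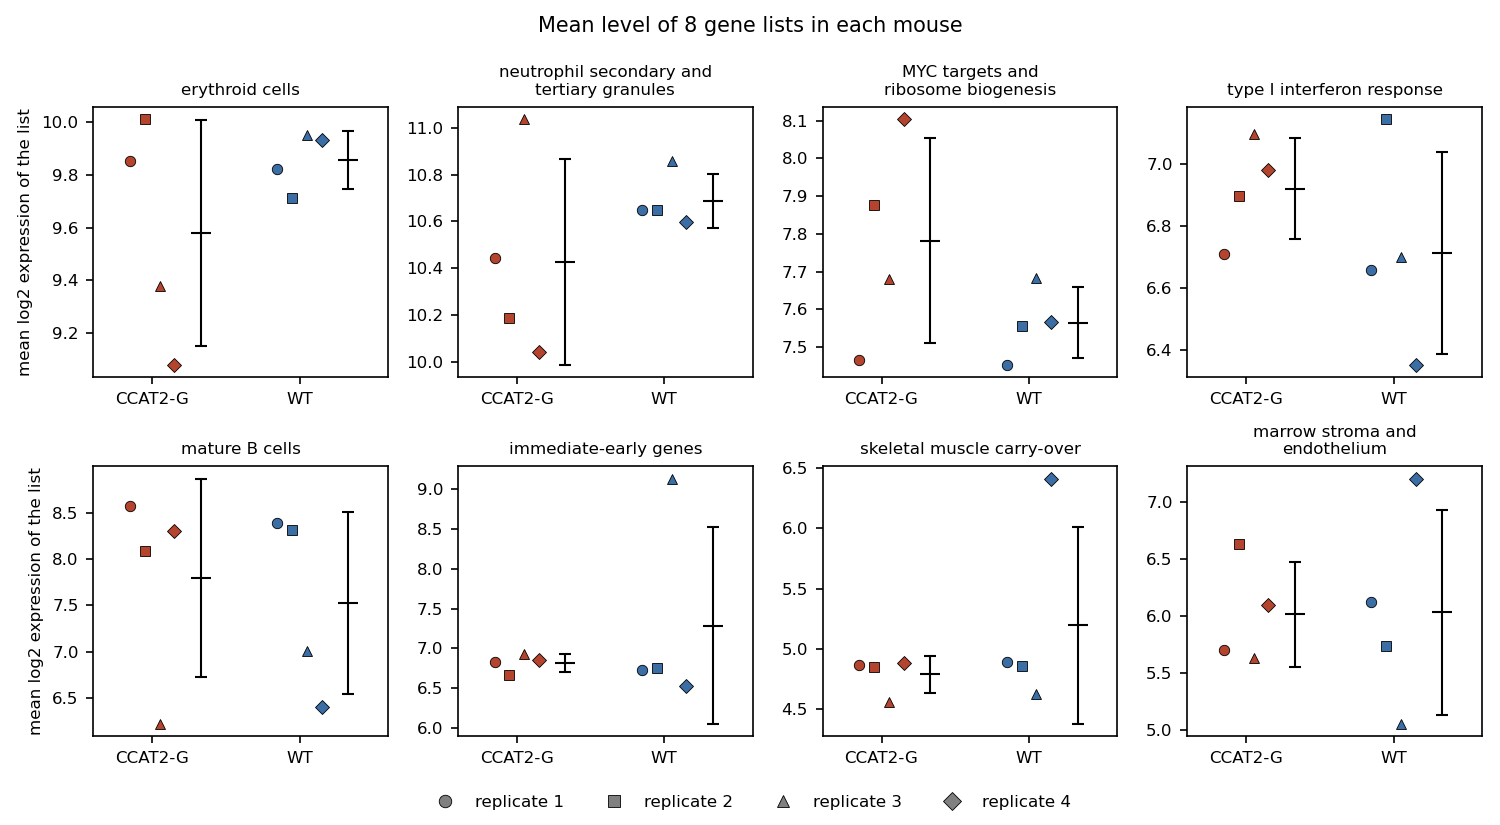
Mean log2 expression of the members of 8 gene lists in each mouse, CCAT2-G in red on the left and WT in blue on the right of each panel; symbols give the replicate, and the bar is the mean with its SD (n = 4). Erythroid levels separate CCAT2-G replicates 3 and 4 from the rest, and single WT mice set the immediate-early (9.13) and muscle (6.41) panels.

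The lowest differences of all belonged to immediate-early and inflammatory genes and came from WT replicate 3. The 6 genes lower by more than 1 on the log2 scale were Cxcl2, Egr1, Ptgs2, Fosb, Jun and Atf3. Cxcl2, a neutrophil chemokine, was at 2.70, 3.12, 3.47 and 3.01 in CCAT2-G mice and 2.95, 3.25, 10.64 and 3.55 in WT mice. Egr1, an early growth response factor, was at 5.88, 5.61, 4.26 and 5.75 in CCAT2-G mice and 5.74, 5.73, 11.54 and 5.27 in WT mice. The immediate-early list had 21 of 23 genes lower and a median of -0.37, but 13 of 23 higher and a median of 0.08 without WT replicate 3. Muscle genes had 15 of 17 lower and a median of -0.44, with the list level at 6.41 in WT replicate 4 and 4.56 to 4.89 in the other 7 mice, and the median was -0.01 without that mouse. Stromal genes had 11 of 23 higher, with Cxcl12, the chemokine that retains stem cells, at 0.15 (SE 0.97), and their level was 7.20 in WT replicate 4. The median of the stromal list was -0.01, but 0.28 with 20 of 23 higher without that mouse, and -0.40 with 4 of 23 higher without WT replicate 3.

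Cell-cycle genes were lower by little. Of 47 members 40 were lower and the median was -0.10, with the ribonucleotide reductase subunit Rrm2 at -0.29 (SE 0.15) and Cdt1, which loads the replicative helicase, at -0.19 (SE 0.12). The median was 0.02, with 25 of 47 higher, without WT replicate 4. Genes mutated in myeloid malignancy differed little. In the chromatin and DNA methylation group 21 of 26 were lower with a median of -0.05, which was 0.06 with 17 of 26 higher without WT replicates 3 and 4, and Ezh2, the histone H3 lysine methyltransferase, was at 9.07, 9.31, 8.83 and 9.08 in CCAT2-G mice and 8.99, 8.99, 9.27 and 9.32 in WT mice. Its difference was -0.07 (SE 0.14). Asxl1, a partner of the deubiquitinase BAP1, differed by -0.26 (SE 0.25), and Phf6 by 0.25 (SE 0.14). In the signalling and transcription group 12 of 20 were higher with a median of 0.02. Splicing factors had 11 of 19 higher (median 0.01), p53 targets 8 of 19 (median -0.05), DNA repair 18 of 32 (median 0.02) and oxidative phosphorylation 19 of 34 (median 0.00). WNT targets had 13 of 17 higher with a median of 0.09, which was -0.03 with 8 of 17 higher without WT replicates 3 and 4, and Nkd1, a feedback inhibitor of that pathway, differed by 0.23 (SE 0.16). Pvt1, the non-coding neighbour of Myc, differed by 0.05 (SE 0.27), and Adar, which edits adenosines in RNA, by 0.03 (SE 0.15).

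Set against the other allele, CCAT2-G marrow again had no gene past an adjusted p of 0.05 (limma, CCAT2-G minus CCAT2-T), with a smallest adjusted p of 0.0579. At an unadjusted p under 0.05 there were 912 genes (6.29%), 611 higher (4.21%) and 301 lower (2.08%) in CCAT2-G mice. This comparison shares the CCAT2-G mice with the one above, so its values are given beside it and not as a repeat. Against the same WT mice, CCAT2-T list medians were 0.27 (mature B cells), 0.16 (T and NK cells) and 0.225 (type I interferon). They were -0.16 for erythroid and -0.19 for cell-cycle genes, the same directions as in CCAT2-G mice. Because both groups were set against the same WT mice, these shared directions are not independent. The CCAT2-G medians of the mature B-cell, T and NK and cell-cycle lists changed sign without WT replicates 3 and 4. For MYC targets, secondary and tertiary granules and platelets they were -0.04, -0.01 and -0.79. Of the 29 genes named by p or no overlap, 22 had the same sign in CCAT2-T mice. These genes were chosen for their difference from the same WT mice, and the share over all genes was not computed. The count is therefore no measure of agreement between the alleles. Vcan differed by 2.14 from CCAT2-T and by 1.92 from WT mice, and its level was 5.18 ± 0.24 (SD, n = 4) in CCAT2-T mice. Socs3 differed by 1.14 from CCAT2-T mice and by 1.52 from WT mice, Il1rap by 0.65 and 0.61, and Bcl3 by 0.51 and 1.10. In the 6 CCAT2-GT mice, the differences from WT mice were 1.37 for Vcan, 1.08 for Socs3, 0.28 for Il1rap and 0.11 for Bcl3. Clec7a differed by -0.61 from CCAT2-T mice and by -0.89 from WT mice, Camkk2 by -0.85 and -0.55, and Trp53bp1 by -0.73 and -0.44. Rragd and Zdhhc15, lower than in WT mice, differed from CCAT2-T mice by 0.10 and 0.14. The smallest p belonged to Add1, which encodes the membrane skeleton protein adducin and was named after its values were seen. It was at 8.89, 8.90, 8.54 and 8.44 in CCAT2-G mice and 9.43, 9.63, 10.06 and 9.81 in CCAT2-T mice, a difference of -1.04 (SE 0.16). Against WT mice, at 8.98, 9.05, 9.20 and 9.00, Add1 differed by -0.37 (SE 0.16).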

How the data were processed

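Total RNA of flash-frozen marrow cells was extracted with Trizol and hybridised as biotin-labelled cRNA to Affymetrix arrays, per the labels' protocols. The authors deposited log2 expression values of 45101 probesets on 18 arrays, normalized with RMA per the submitters' processing notes. No source used here gives a version or a probe definition. The titles call the samples biological replicates.

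Probesets were named from the platform annotation: 34958 had 1 symbol, 932 several and 9211 none listed, and those with 1 were used. Each of 18194 genes was represented by its brightest probeset, and genes under the 30th percentile of probeset means (3.30) were left out, which kept 14505. Levels of different probes were not ranked against each other. Differences are log2, CCAT2-G minus the other group, fitted with limma 3.58.1 in R 4.3.3 (eBayes with trend, two-sided) on 18 arrays in 4 groups, with Benjamini-Hochberg adjustment over all genes at 0.05. The fit was also run on simulated normal values, drawn independently for each gene. They hold no mouse that stands apart in many genes, so they do not show how the fit behaves on these arrays.

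The comparison, lists and named genes were chosen with earlier results of these data known, so lists get no test. Genes named are the 10 of smallest p in each direction, the 6 of largest difference in each direction without overlap, up to 4 members of smallest p per list, and fixed lineage and malignancy genes, of which some are not printed. Predicted or clone-named genes and segments of immunoglobulin and T-cell receptor genes were passed over. Members named beyond that rule were chosen after their values were seen. Of 871 list entries 787 matched a gene and 759 were measured. A list's level in a mouse is the mean of its measured members. Promoter sequences are from RefSeq (GRCm38.p6), with the first window listed per gene. Alternatives covered normalization, filter, probeset choice, variance model, array weights, samples fitted, array spread, stroma level, replicate number as a block and leaving out each mouse.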

Additional observations from a re-analysis of the deposited data

Results flagged for a closer look

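The 100 genes named in the text and 33 list levels gave 266 groups of 4 values, in CCAT2-G and in WT mice. In 29 of them a mouse had a gap to the nearest other above Dixon's 95% critical value. Chance flags about 1 in 20 independent groups. Here some genes were named after their values were seen, and genes and lists vary together. The count of 29 therefore cannot be set against that rate. WT replicate 3 accounted for 12, CCAT2-G replicate 3 for 10, WT replicate 4 for 5, and CCAT2-G replicate 2 and WT replicate 2 for 1 each.

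CCAT2-G replicate 3 was high in Il1rap (6.64), Inpp5k (8.08), S100a8 (13.84) and Polr1a (6.34) and low in Cd79a (5.07), Vpreb1 (4.22) and Egr1 (4.26). Its list levels of B-cell precursors (6.11), eosinophils, basophils and mast cells (7.15) and skeletal muscle (4.56) also stood apart from the other CCAT2-G mice. CCAT2-G replicate 2 was high in Pvt1 (5.99). WT replicate 3 was high in the immediate-early level (9.13) and in Socs3 (6.96), Atf3 (8.41), Cebpb (11.27), Csf3r (10.14), Cxcl2 (10.64), Egr1 (11.54), Fosb (7.76), Jun (10.56), Pim1 (9.36) and Ptgs2 (7.83), and low in the plasma cell level (7.12). WT replicate 4 was high in Tlcd2 (5.68), Rragd (6.87), and in the levels of platelets (8.65), eosinophils, basophils and mast cells (6.66) and skeletal muscle (6.41). WT replicate 2 was low in Wdr91 (6.26).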

How the results depend on the processing

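No gene passed an adjusted p of 0.05 between CCAT2-G and WT mice in the limma fits tried, except within the 5 narrow arrays, an alternative chosen after seeing the data. There 9 genes passed, 4 higher and 5 lower, among them Socs3 (1.84), Vcan (1.58), Il1r2 (1.23) and Clec7a (-1.12). That fit sets 1 CCAT2-G mouse against 2 WT mice and assumes that the lone mouse varies like the other groups. The other genes there were Slc15a2 (-2.55), Lonrf3 (-1.195), Hpgd (-0.996), Ctsg (-0.85) and Mmp13 (1.48). With all 18 arrays fitted, Slc15a2 differed by -0.66 (SE 0.77), Lonrf3 by -0.40 (SE 0.30) and Hpgd by -0.43 (SE 0.41). Ctsg differed by -0.12 (SE 0.38) and Mmp13 by 0.64 (SE 1.05). The narrow arrays are among those 18, so they give the genes named above no separate support. Against CCAT2-T mice, Add1 alone passed, with quantile normalization and with a filter at the 50th percentile, and no gene passed in the other fits tried.

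At an unadjusted p under 0.05, the higher count of 133 was 207 with quantile normalization, 1207 with array weights, 658 with the narrow arrays as a block, 686 without them, 312 with each array's interquartile range in the model and 367 within the narrow arrays. The lower count of 95 was 708, 477, 315, 172 and 910 under array weights, block, removal, covariate and within the narrow arrays, 63 with the compared groups alone, 167 with the stroma level as a covariate and 168 without WT replicates 3 and 4 (added after seeing the data). With each mouse left out the higher count ran from 78 to 376 and the lower from 39 to 514, and 0 genes passed in every such fit. The causes were not tested.

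With the replicate number as a block the counts were 195 higher and 142 lower, with 0 genes past the adjusted threshold. The numbers do not pair the mice by the labels, and same-numbered CCAT2-G and WT mice deviated together with correlations of 0.67, -0.05, 0.50 and -0.04, so 2 of 4 matched best with their own number.

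Of the 29 genes named by p or by groups that did not overlap, 28 kept their sign in every setting, the exception being Slc7a6. These genes were chosen from the same values, and groups without overlap keep their sign with any mouse left out. Their steady sign therefore gives them no support. Of all 167 genes recorded, these included, 98 kept their sign and 69 changed it in some setting. Of 34 lists, 5 kept the sign of their median. The number of arrays limits the precision, and the arrays give no read depth.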

Other observations

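A list of 30 genes of the STAT3 and interleukin-6 family response was put together after Socs3, Bcl3 and Il1rap had been seen, and it holds them, so its counts give no support to those genes. Of 29 measured members, 17 were higher in CCAT2-G mice, with a median difference of 0.11. Batf, a transcription factor of the AP-1 family, was at 6.74, 6.93, 7.24 and 7.45 in CCAT2-G mice and 6.67, 6.57, 6.64 and 6.74 in WT mice, a difference of 0.44 (SE 0.15). Il4ra, the interleukin-4 receptor chain, was at 6.66, 6.62, 6.93 and 6.98 in CCAT2-G mice, all above the WT mice at 6.45, 6.51, 6.43 and 6.29. Hif1a, the oxygen-regulated transcription factor, differed by 0.43 (SE 0.16). Stat3 differed by 0.15 (SE 0.18), Csf3r, the receptor of granulocyte colony-stimulating factor, by -0.49 (SE 0.40), and Lcn2, Pim1 and Cebpb by -0.09, 0.11 and 0.01. The higher members were thus a subset of the list.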
